A study of Mus musculus with 9 samples.

Results

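The genes described here are 10 components of the circadian clock, *Nr1d1*, *Nr1d2*, *Arntl*, *Npas2*, *Per1*, *Per2*, *Per3*, *Cry1*, *Dbp* and *Ciart*, read on Clariom S mouse arrays of whole liver. Each symbol matched 1 of the 22206 transcript clusters in the table, so all 10 genes were measured. They were chosen by symbol after an earlier look at the same arrays, in which *Nr1d1* was selected on its low values in ob/ob mice given extract relative to ob/ob mice given vehicle. Values of single genes in that comparison are therefore given here as a description without a test, and nothing is supported with them. The study has 9 arrays, 1 per sample. In 3 of them the liver came from C57BL/6JHamSlc-ob/ob mice gavaged with *Vigna umbellata* (rice bean) extract at 100 mg per kg, in 3 from C57BL/6JHamSlc-ob/ob mice given vehicle, and in 3 from C57BL/6JHamSlc-+/+ wild-type mice given vehicle. All were males obtained at 6 weeks of age, acclimatised for 1 week, kept on standard chow in a light and dark cycle of 12 h each, and treated for 42 days. The ob/ob mutation removes functional leptin from the whole body, not from the liver alone. None of the 9 arrays came from wild-type mice given extract. The time of day at which livers were taken and whether mice had been fasted are not given in the sources used here.

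The clock of a liver cell is a loop of transcription factors whose RNAs rise and fall once a day. BMAL1, the product of *Arntl*, pairs with CLOCK or its relative NPAS2, binds E-box sequences and drives the *Per* and *Cry* genes, *Ciart*, *Dbp* and the *Nr1d1* and *Nr1d2* genes. PER and CRY proteins then block that activator, while REV-ERB-alpha and REV-ERB-beta, encoded by *Nr1d1* and *Nr1d2*, repress *Arntl*, *Npas2* and *Cry1* through ROR elements. In liver, meal times set this clock, and REV-ERB-alpha is known for restraining lipid synthesis. A single sampling reads 1 moment of each cycle.

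Values are on the authors' log2 scale, on which a difference of 1 stands for a 2-fold difference in signal. A gene's values are compared across arrays only, since signals of different genes have no common scale. Array medians lay between 5.07 and 5.36. Ob/ob vehicle 3 and wild-type vehicle 3 stood apart, correlating at no more than 0.952 and 0.955 with the other arrays of their groups, and had interquartile ranges of 3.26 and 3.01 against 3.36 to 3.85 on the other 7 arrays. Lacking detection calls, background was read from 1414 clusters of olfactory and vomeronasal receptors, which liver does not use, as the level that 2.5% of them exceeded on each array. That limit was 5.38 to 5.56 in extract arrays, 5.35 to 6.53 in ob/ob vehicle arrays and 5.71 to 7.06 in wild-type arrays, highest on the arrays that stood apart. Hepatocyte markers (*Alb*, *Ttr*, *Apoa1*, *Apob* and *Serpina1c*; 5 of 6 listed genes measured) were above it on every array.

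*Nr1d1*, the heme-binding repressor REV-ERB-alpha, was lowest in livers of extract-treated ob/ob mice. Its signal was 6.46, 6.65 and 5.74 log2 in ob/ob extract, 9.16, 8.44 and 8.55 in ob/ob vehicle, and 9.30, 9.15 and 10.51 in wild type. All 3 extract arrays lay below every other array, while ob/ob vehicle 1 lay just above wild-type vehicle 2, so the vehicle groups overlapped. The mean was 6.28 ± 0.48 in ob/ob extract, 8.72 ± 0.39 in ob/ob vehicle, against 9.65 ± 0.75 in wild-type arrays (SD, n = 3 each), and every value was above the receptor limit. Seen as its rank on each array, *Nr1d1* stood at the 58.6th to 67.8th percentile of all clusters in extract arrays, the 80.5th to 84.8th in ob/ob vehicle and the 86.7th to 92.7th in wild type. The groups thus kept the order of their means, but by rank the vehicle groups did not overlap as they did in log2. Ranks also depend on the other clusters of each array, whose signal range differed, and the part of this was not tested.

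Extract minus ob/ob vehicle, *Nr1d1* differed by -2.43 log2 (SE 0.40), a signal 5.4-fold lower. Leaving out any 1 array kept the difference between -2.62 and -2.16, and without both arrays that stood apart it was -2.52. Extract minus wild type, the difference was -3.37 (SE 0.40, limma adjusted p = 0.00307), a signal 10.3-fold lower. This test reuses the extract arrays on which the gene was picked and is not independent of that choice. It passed in all 17 alternative fits, with adjusted p between 7.32e-04 and 0.0175 and differences between -3.62 and -2.94. Ob/ob vehicle minus wild type, *Nr1d1* differed by -0.94 (SE 0.40, 95% interval -1.82 to -0.05, limma adjusted p = 0.266) and did not pass the test.

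**Figure D1:**
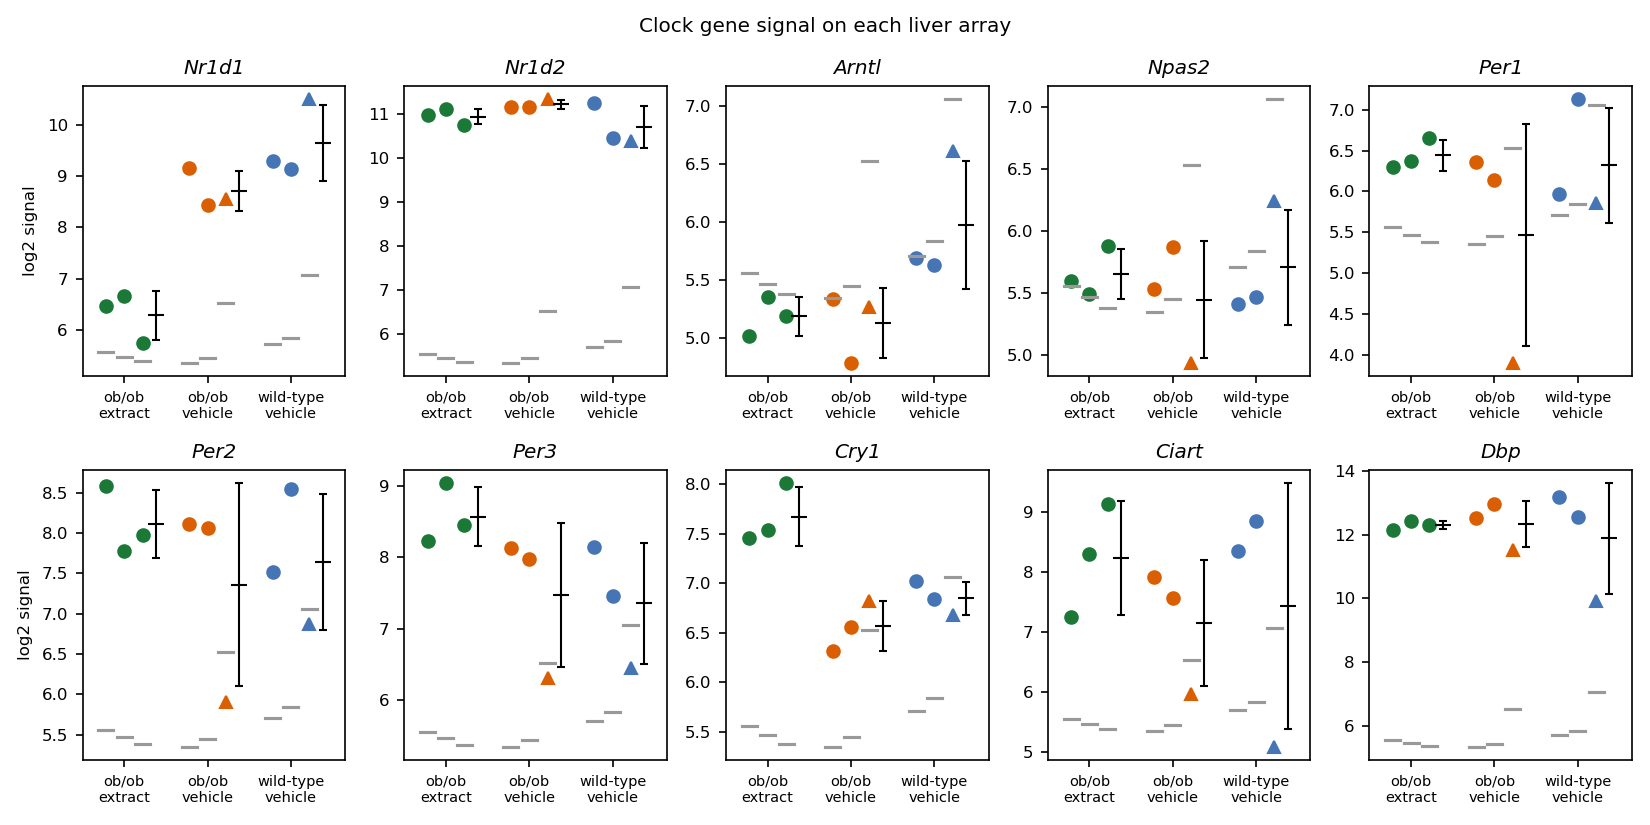
Log2 signal of the 10 clock genes (vertical axes, each with its own range) on every array of the ob/ob extract, ob/ob vehicle and wild-type vehicle groups. Points are arrays (triangles are ob/ob vehicle 3 and wild-type vehicle 3), black bars give mean ± SD, and grey dashes mark the receptor limit of each array; *Nr1d1* lies between 5.74 and 6.65 in ob/ob extract, below all 6 other arrays.

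*Nr1d1* lies on mouse chromosome 11, and its promoter is shown because E-box letters are the route by which BMAL1 is known to drive it. The 250 bases before its start (RefSeq, GRCm38.p6, chr11:98775378-98775627, minus strand) read as follows, with capitals marking an E'-box, CACGTT, found here on the reverse strand between 28 and 23 bases before the start.
Nr1d1: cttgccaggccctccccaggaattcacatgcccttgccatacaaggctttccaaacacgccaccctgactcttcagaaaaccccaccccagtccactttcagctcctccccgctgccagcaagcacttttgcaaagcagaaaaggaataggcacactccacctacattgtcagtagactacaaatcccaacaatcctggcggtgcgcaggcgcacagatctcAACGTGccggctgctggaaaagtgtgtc
The letters CACGTT occur on either strand in 3.85% of the 32851 RefSeq mouse promoters of the same length. The canonical E-box CACGTG was not among the letters of this window.

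*Nr1d2*, encoding the paralogue REV-ERB-beta, held a narrow range in the same livers. It gave 10.96, 11.10 and 10.75 log2 in ob/ob extract, 11.16, 11.15 and 11.33 in ob/ob vehicle, and 11.24, 10.46 and 10.38 in wild type. The extract arrays lay just under all ob/ob vehicle arrays and inside the wild-type range. The difference was -0.28 (SE 0.27) for extract minus ob/ob vehicle. Against wild type it was 0.24 for ob/ob extract (95% interval -0.36 to 0.85, limma adjusted p = 0.731) and 0.52 for ob/ob vehicle (-0.09 to 1.13, limma adjusted p = 0.377). The 2 REV-ERB genes were thus -2.43 and -0.28 apart from ob/ob vehicle in the same extract livers, and whether these differences differ was not tested.

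*Cry1*, a cryptochrome that blocks the BMAL1 complex and is itself a REV-ERB target, was highest in the extract group. Its signal was 7.46, 7.54 and 8.01 log2 in ob/ob extract, 6.32, 6.56 and 6.82 in ob/ob vehicle, and 7.02, 6.84 and 6.68 in wild type. Every extract array lay above every vehicle array of either genotype, while the vehicle groups overlapped and wild-type vehicle 3 lay under its receptor limit. Extract minus ob/ob vehicle, *Cry1* differed by 1.10 (SE 0.25), a 2.15-fold higher signal, between 0.93 and 1.23 when any 1 array was left out. Extract minus wild type, it differed by 0.82 (SE 0.25, 95% interval 0.26 to 1.38, limma adjusted p = 0.18) and did not pass. Ob/ob vehicle minus wild type, the difference was -0.28 (limma adjusted p = 0.637).

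*Per3*, the least studied period gene, was also highest in the extract group. It gave 8.23, 9.04 and 8.45 log2 in ob/ob extract, 8.13, 7.98 and 6.31 in ob/ob vehicle, and 8.15, 7.46 and 6.46 in wild type. The extract arrays lay above the others, though the lowest of them, 8.23, was close to wild-type vehicle 1 at 8.15, and the third array of each vehicle group lay under its receptor limit. The difference of 1.10 (SE 0.53) from ob/ob vehicle was 0.52 without ob/ob vehicle 3. Against wild type the difference was 1.22 (SE 0.53, limma adjusted p = 0.344) and 0.77 without wild-type vehicle 3.

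*Per1* and *Per2*, the light- and hormone-responsive period genes, differed more within the vehicle groups than between groups. *Per1* gave 6.30, 6.37 and 6.66 log2 in ob/ob extract, 6.36, 6.14 and 3.90 in ob/ob vehicle, and 5.97, 7.13 and 5.86 in wild type. *Per2* gave 8.58, 7.77 and 7.97 in ob/ob extract, 8.11, 8.06 and 5.91 in ob/ob vehicle, and 7.52, 8.54 and 6.87 in wild type. In both genes ob/ob vehicle 3 was the lowest of all 9 arrays, the third array of each vehicle group lay under its receptor limit, and the groups overlapped in every comparison. Their differences for extract minus ob/ob vehicle, 0.98 (SE 0.59) and 0.75 (SE 0.60), were 0.19 and 0.02 without ob/ob vehicle 3. For ob/ob vehicle minus wild type *Per1* differed by -0.85 (95% interval -2.15 to 0.45, limma adjusted p = 0.513) and *Per2* by -0.28 (-1.60 to 1.04, limma adjusted p = 0.861). With the interquartile range of the arrays as a covariate the *Per1* difference became -1.93 and passed (limma adjusted p = 0.041).

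*Ciart*, whose product CHRONO represses the BMAL1 complex, spread widely within groups. It gave 7.24, 8.30 and 9.13 log2 in ob/ob extract, 7.92, 7.56 and 5.96 in ob/ob vehicle, and 8.35, 8.85 and 5.09 in wild type. The groups overlapped, and the third vehicle arrays were again the lowest and under their receptor limits. The difference of 1.08 (SE 0.91) for extract minus ob/ob vehicle was 0.48 without ob/ob vehicle 3. The difference of 0.79 for extract minus wild type (95% interval -1.22 to 2.81, limma adjusted p = 0.737) was -0.38 without wild-type vehicle 3, a change of sign.

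The promoters of *Cry1* (chr10:85185055-85185304, minus strand), *Per3* (chr4:151044666-151044915, minus strand) and *Ciart* (chr3:95882229-95882478, minus strand) are shown because these repressor genes had the largest positive differences from ob/ob vehicle while differing in the clock motifs they hold. Each is the 250 bases before the start in RefSeq, GRCm38.p6. Capitals mark E-boxes (CACGTG) in *Cry1* and *Ciart*, an E'-box (CACGTT on the reverse strand) in *Cry1* and D-boxes (TTATGTAA) in *Per3*.
Cry1: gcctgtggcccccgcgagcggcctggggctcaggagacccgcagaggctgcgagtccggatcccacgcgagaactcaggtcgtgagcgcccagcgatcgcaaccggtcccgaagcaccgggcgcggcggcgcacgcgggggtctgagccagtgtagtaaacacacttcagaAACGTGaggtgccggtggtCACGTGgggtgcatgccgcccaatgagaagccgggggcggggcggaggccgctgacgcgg
Per3: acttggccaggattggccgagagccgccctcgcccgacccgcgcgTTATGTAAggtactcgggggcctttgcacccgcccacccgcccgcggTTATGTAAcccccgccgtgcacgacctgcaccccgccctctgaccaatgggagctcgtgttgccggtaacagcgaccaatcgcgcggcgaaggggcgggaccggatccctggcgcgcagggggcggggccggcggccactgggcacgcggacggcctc
Ciart: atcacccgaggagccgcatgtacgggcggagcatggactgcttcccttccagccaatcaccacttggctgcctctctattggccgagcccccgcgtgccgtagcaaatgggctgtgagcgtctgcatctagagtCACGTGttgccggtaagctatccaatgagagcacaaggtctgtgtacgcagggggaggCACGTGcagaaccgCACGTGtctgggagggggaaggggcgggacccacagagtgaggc
*Ciart* held 3 E-boxes, between 116 and 39 bases before its start, and *Cry1* held 1, from 60 to 55 bases before its start, where 6.02% of all promoters of this length hold at least 1. *Per3* held 2 D-boxes, the sites that DBP is known to bind, at 205 to 198 and 158 to 151 bases before its start, and no E-box letters. The letters TTATGTAA occur in 0.819% of all promoters. Promoters were present for 9 of the 10 genes, with 2 starts each for *Arntl* and *Per1*; *Per2* had none. Of the others, 1 *Per1* promoter held 1 E-box and 1 D-box of the form TTATGCAA (0.694% of all promoters), and the windows of *Arntl*, *Npas2*, *Nr1d2* and *Dbp* held none of the letters searched on both strands, which also included the ROR elements TAGGTCA and TGGGTCA (5.38% of all promoters hold either) and the cyclic AMP element TGACGTCA (1.55%). There were 0 overlaps between matches.

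*Dbp*, a bZIP activator of clock output that is among the strongest cyclers of liver, was close to level between groups. It gave 12.16, 12.42 and 12.30 log2 in ob/ob extract, 12.53, 12.95 and 11.52 in ob/ob vehicle, and 13.19, 12.54 and 9.92 in wild type. The extract arrays lay inside the ranges of both vehicle groups, and wild-type vehicle 3 was the lowest array by a wide gap. The difference was -0.04 (SE 0.70) for extract minus ob/ob vehicle and -0.45 without ob/ob vehicle 3. Against wild type it was 0.41 for ob/ob extract (95% interval -1.15 to 1.97, limma adjusted p = 0.834) and 0.45 for ob/ob vehicle (-1.11 to 2.01, limma adjusted p = 0.805). Without wild-type vehicle 3 these became -0.57 and -0.53.

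The activators *Arntl* and *Npas2* were dim. *Arntl* gave 5.02, 5.36 and 5.19 log2 in ob/ob extract, 5.34, 4.79 and 5.27 in ob/ob vehicle, and 5.69, 5.63 and 6.61 in wild type. It lay under the receptor limit on all 9 arrays. All wild-type arrays were above all ob/ob arrays of both kinds, while receptor limits were 5.38 to 5.56 in ob/ob extract, 5.35 to 6.53 in ob/ob vehicle, against 5.71 to 7.06 in wild type, and the part of background in the *Arntl* difference was not tested. The differences from wild type were -0.79 (SE 0.31, limma adjusted p = 0.282) for ob/ob extract and -0.84 (SE 0.31, limma adjusted p = 0.188) for ob/ob vehicle. *Npas2* gave 5.60, 5.49 and 5.88 in ob/ob extract, 5.53, 5.87 and 4.94 in ob/ob vehicle, and 5.41, 5.47 and 6.24 in wild type, with overlap in every comparison. It was above the limit on 5 of 9 arrays, none of them wild type, and its differences ran from -0.26 to 0.21.

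**Figure D2:**
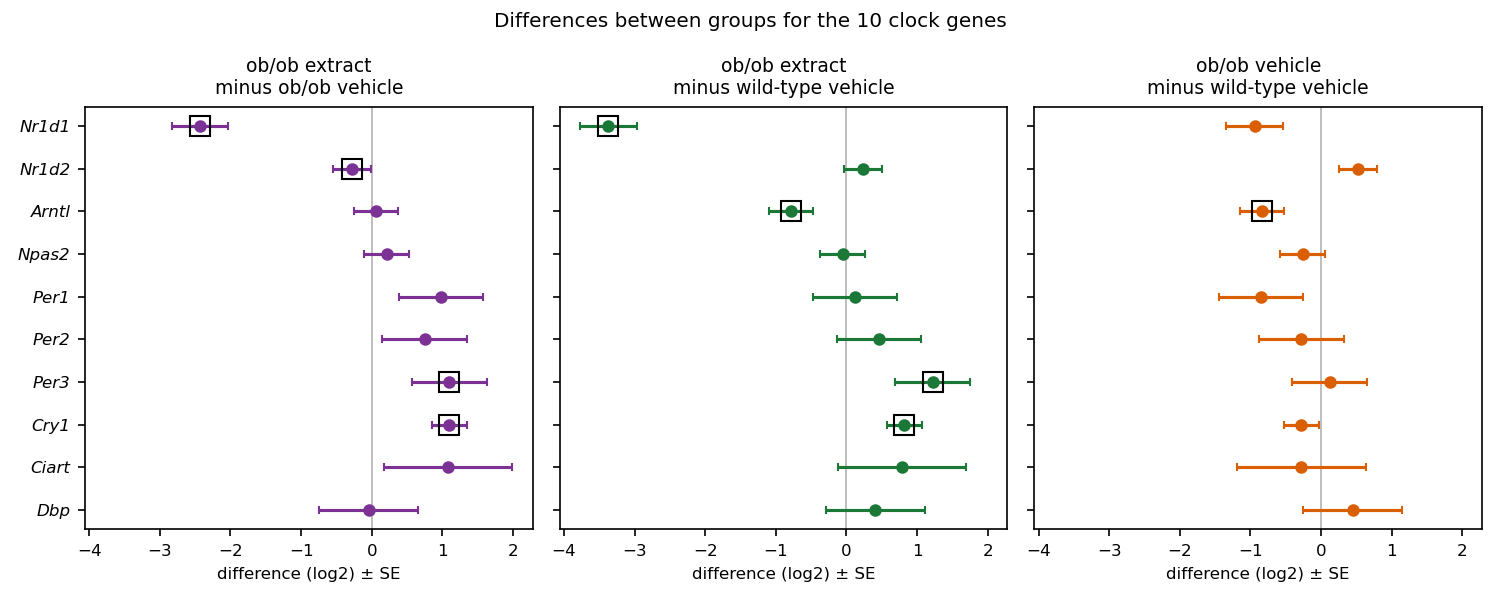
Differences in log2 signal (horizontal axes) with their SE from limma for the 10 clock genes, for ob/ob extract minus ob/ob vehicle, ob/ob extract minus wild type and ob/ob vehicle minus wild type. Open squares mark genes whose 2 groups do not overlap; *Nr1d1* lies farthest from 0 in the panels with extract, at -2.43 and -3.37.

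Across the 10 genes, extract against ob/ob vehicle gave positive differences in 7 and negative ones in 3, with a median of 0.48 where the median of all clusters was -0.01. Most of the positive differences leaned on the arrays that stood apart. Without both of those arrays *Per1* was at 0.19, *Per2* at 0.02, *Per3* at 0.52 and *Ciart* at 0.48. *Npas2* was then at -0.04 and *Arntl* at 0.13, while *Cry1* was at 1.23. Groups did not overlap in 2 genes on the high side (*Per3* and *Cry1*), against 7.47% of all clusters, and in 2 on the low side (*Nr1d1* and *Nr1d2*), against 6.08%. The low side count holds *Nr1d1*, which was picked for being low in this comparison, so it cannot be read against that share. Without both arrays that stood apart the counts were 2 and 3, *Dbp* joining the low side, against 17% and 16.9%. Limma called 0% of all clusters in this comparison (smallest adjusted p = 0.593), with 1433 under an unadjusted p of 0.05.

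Against wild type the extract group had 1 of 10 genes called lower, *Nr1d1*, where 0.315% of all clusters were, and 0 called higher, where 0.977% were. *Nr1d1* was picked on its low values in these extract arrays. Counts on the low side that hold it therefore cannot be read against the shares of all clusters, and no other clock gene was called. Non-overlapping groups were found in *Per3* and *Cry1* on the high side (11.1% of all clusters) and *Nr1d1* and *Arntl* on the low side (10.6%). The design text sets a looser criterion (p below 0.05 without adjustment, and a 1.1-fold difference), which these 4 genes also met. Of all clusters 14% met it, but the count of 4 also holds *Nr1d1* and cannot be read against that share. The median difference of the 10 genes was 0.33, against -0.05 for all clusters. It leaned on wild-type vehicle 3. Without that array *Per1*, *Dbp* and *Ciart* were at -0.11, -0.57 and -0.38, *Per2* at 0.08 and *Nr1d2* at 0.09. *Per3* was then at 0.77 and *Npas2* at 0.22, and *Cry1* stayed between 0.65 and 0.93 without any 1 array. This comparison and the one against ob/ob vehicle share the extract arrays.

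Between ob/ob vehicle and wild type limma called 0 of the 10 genes, while it called 2.28% of all clusters higher and 0.68% lower. Only *Arntl*, under the receptor limit throughout, had groups that did not overlap, on the low side (9.78% of all clusters; 9.71% on the high side). *Nr1d1* and *Arntl* met the looser criterion, against 17% of all clusters. The intervals stay wide: that of *Dbp* allows from -1.11 to 2.01 and that of *Ciart* from -2.30 to 1.73, so differences of either sign within those bounds are not excluded.

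Within groups the clock genes deviated together on particular arrays. On ob/ob vehicle 3 *Per1*, *Per2*, *Per3*, *Ciart* and *Dbp* deviated from their group means by -1.57, -1.45, -1.16, -1.19 and -0.81 log2. On wild-type vehicle 3 the deviations were -2.34 in *Ciart*, -1.96 in *Dbp* and -0.90 in *Per3*, against 0.86 in *Nr1d1*, 0.63 in *Arntl* and 0.53 in *Npas2*. The extract arrays deviated by at most 0.54 in 9 genes and by up to 0.98 in *Ciart*. Over the deviations of all 9 arrays, which hold 6 free values once group means are removed, Pearson's r was 0.92 between *Per1* and *Per2*, 0.88 between *Dbp* and *Ciart*, 0.83 between *Dbp* and *Per3*, -0.85 between *Arntl* and *Dbp*, and -0.76 between *Nr1d1* and *Cry1*. Without both arrays that stood apart, which leaves 7 arrays and fewer free values, these became 0.64, -0.11, 0.66, -0.20 and -0.85. *Nr1d1* and *Arntl* went from 0.81 to 0.60, *Arntl* being under the receptor limit throughout. *Per3* and *Ciart* went from 0.78 to 0.11. The relation of *Dbp* with *Ciart* and with *Arntl* thus rests on those arrays. So do the other pairs of *Per* genes, which changed sign without them. *Per1* and *Per3* went from 0.69 to -0.58, and *Per2* and *Per3* from 0.67 to -0.90. The same arrays differ in signal range and background limit, and the part of these in the shared deviations was not tested.

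**Figure D3:**
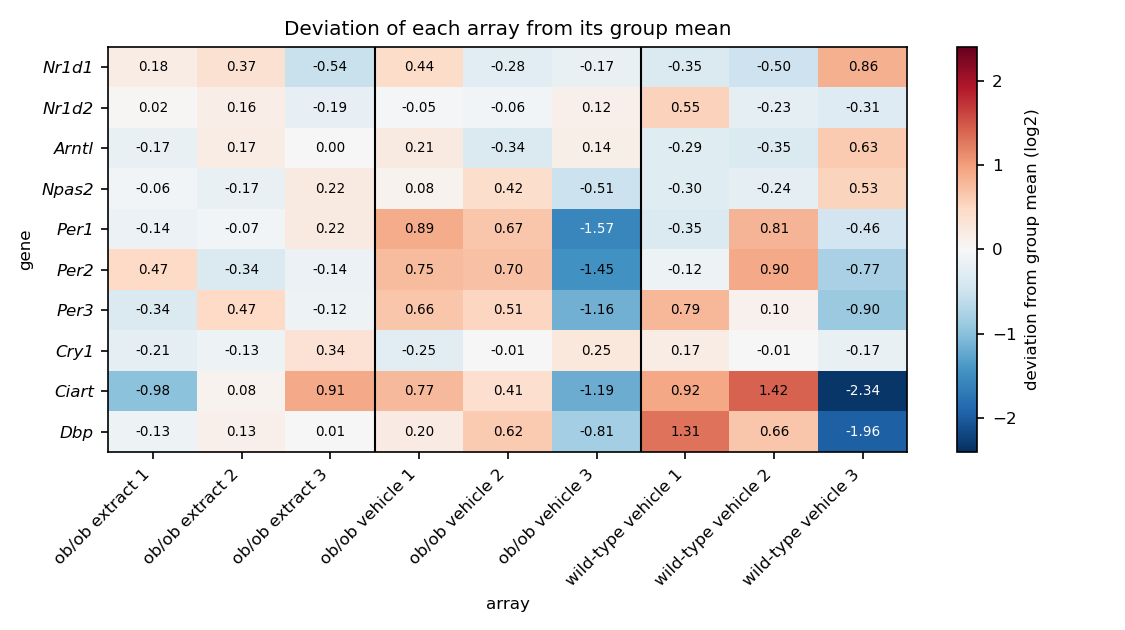
Deviation of each array (columns) from its group mean in log2 (colour and printed value) for the 10 clock genes (rows). Ob/ob vehicle 3 is low in all 3 *Per* genes, *Ciart* and *Dbp*, and wild-type vehicle 3 reaches -2.34 in *Ciart*.

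Beyond the 10 genes, 51 other genes of the clock and its surroundings were listed by role, and 44 of them matched a cluster. Of these 44, 0 were called between extract and ob/ob vehicle, 3 were called higher and 1 lower between extract and wild type (0.977% and 0.315% of all clusters), and 4 higher and 2 lower between ob/ob vehicle and wild type (2.28% and 0.68%). Their median differences were 0.21, 0.23 and 0.06, where those of all clusters were -0.01, -0.05 and -0.06.

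The remaining loop components gave no call in any comparison. *Clock*, the partner of BMAL1, was at 11.71 ± 0.18 log2 in ob/ob extract, 12.05 ± 0.15 in ob/ob vehicle, against 12.03 ± 0.10 in wild type (SD, n = 3 each). Extract differed by -0.33 from ob/ob vehicle and -0.32 from wild type (SE 0.22 for each), both without overlap. Of all clusters 6.08% and 10.6% were lower in extract without overlap in these comparisons. *Cry2* averaged 9.38 ± 0.55 in ob/ob extract, 8.75 ± 1.22 in ob/ob vehicle, against 8.30 ± 0.39 in wild type. *Nfil3*, which competes with DBP for D-boxes and is repressed by REV-ERB, was at 6.94 ± 0.38 in ob/ob extract against 6.11 ± 0.41 in ob/ob vehicle without overlap (difference 0.83, SE 0.39). Of all clusters 7.47% were higher in extract than in ob/ob vehicle without overlap. The DEC factor *Bhlhe40* and the bZIP factor *Hlf* overlapped between groups, and *Tef*, *Arntl2*, *Timeless* and *Rorb* were under the receptor limit on all 9 arrays. Of 9 listed kinases, ubiquitin ligases and a deubiquitinase (*Usp2*) that act on clock proteins 8 were measured, with 0 called and differences from ob/ob vehicle between -0.58 and 1.23. The highest was *Usp2* (SE 1.04), which was at 4.76 on ob/ob vehicle 3, under the receptor limit, against 8.78 and 8.57 on the other ob/ob vehicle arrays.

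Among 8 measured of 10 listed output genes, 2 were called higher in extract than wild type, against 0.977% of all clusters. *Nampt*, which makes the NAD precursor and is driven by the clock, was at 10.77 ± 0.11 log2 in ob/ob extract, 9.96 ± 0.25 in ob/ob vehicle, against 8.80 ± 0.85 in wild type. Extract minus wild type it differed by 1.96 (SE 0.38, limma adjusted p = 0.0361), a call kept in 8 of 17 alternative fits (adjusted p up to 0.155) and in 2 of the 9 that left out 1 array. The P450 gene *Cyp2a5* passed in both ob/ob groups against wild type, by 2.77 (limma adjusted p = 0.0433) and 2.52 (0.0421), and kept each call in 9 of 17 fits. At 19.92 ± 0.01 in ob/ob extract it was at the top of the scale, which ends at 19.93, so the size cannot be read. *Wee1*, a cell cycle kinase driven by E-boxes, was at 9.37 ± 0.19 in ob/ob extract, 9.72 ± 0.34 in ob/ob vehicle, against 7.27 ± 2.04 in wild type, and passed in neither comparison with wild type (limma adjusted p = 0.253 and 0.129).

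Of 9 listed genes that REV-ERB is known to repress, 7 were measured; the list in the plot by role also holds *Hdac3*, a corepressor enzyme through which REV-ERB acts, left out of this count after the values were seen (median of all 8 measured, 0.11). Between extract and ob/ob vehicle 5 had positive and 2 negative differences, from -0.50 to 1.14 with a median of 0.21, and 0 were called. The smallest positive one was *Lpl* at 0.01, and 10742 of all 22206 clusters had positive differences. The gluconeogenic enzyme *Pck1* was the 1 gene without overlap, at 17.90 ± 0.36 log2 in ob/ob extract and 17.18 ± 0.34 in ob/ob vehicle (difference 0.72). Of all clusters 7.47% were higher in extract without overlap. Against wild type 4 differences in 3 genes of this list were called. In extract 1 was lower (0.315% of all clusters), and in ob/ob vehicle 2 were higher (2.28%) and 1 lower (0.68%). *Insig2*, which holds back SREBP processing, was 2.25 higher in ob/ob vehicle than in wild type (SE 0.40, limma adjusted p = 0.0182; called in 14 of 17 fits). The lipid droplet gene *Plin2* was 3.04 higher (limma adjusted p = 0.0465; called in 8 of 17), and the elongase gene *Elovl3* was -4.54 from wild type in ob/ob extract (limma adjusted p = 0.0143; called in 15 of 17) and -5.68 in ob/ob vehicle (0.00385; 17 of 17). In ob/ob extract *Insig2* was 1.75 and *Plin2* 2.75 above wild type, without a call (limma adjusted p = 0.0748 and 0.105). From ob/ob vehicle *Insig2* and *Plin2* differed in extract by only -0.50 and -0.29.

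Glucocorticoids, heat and cold carry body-wide time signals to the liver clock, and 9 of 9 listed genes that respond to them were measured. The glucocorticoid targets *Tsc22d3* and *Fkbp5* were higher in extract than in ob/ob vehicle without overlap, 2 of 9 genes where 7.47% of all clusters did so. *Tsc22d3* gave 10.79, 10.58 and 12.25 log2 in ob/ob extract, 9.52, 9.30 and 9.40 in ob/ob vehicle, and 10.57, 12.83 and 12.12 in wild type. *Fkbp5* gave 12.61, 14.44 and 13.74 in ob/ob extract, 11.53, 10.90 and 11.28 in ob/ob vehicle, and 13.13, 13.41 and 10.44 in wild type. The differences from ob/ob vehicle were 1.80 (SE 0.56) and 2.36 (SE 0.71), while *Sgk1*, another glucocorticoid target, differed by -0.26 with overlap. Between ob/ob vehicle and wild type *Tsc22d3* fell by 2.43 (limma adjusted p = 0.0483), a call kept in 7 of 17 fits and lost without both arrays that stood apart (0.0591). *Rbm3*, an RNA-binding protein induced by cold, was higher than wild type by 2.48 in ob/ob extract and 2.23 in ob/ob vehicle (limma adjusted p = 0.0303 and 0.0327; called in 11 and 10 of 17 fits). *Cirbp*, also listed as cold responsive, differed from wild type by 0.82 and 0.15, with overlap and without a call (limma adjusted p = 0.417 and 0.901). The heat shock genes *Hspa1a*, *Hspa1b*, *Hsph1* and *Dnajb1* gave no call.

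**Figure D4:**
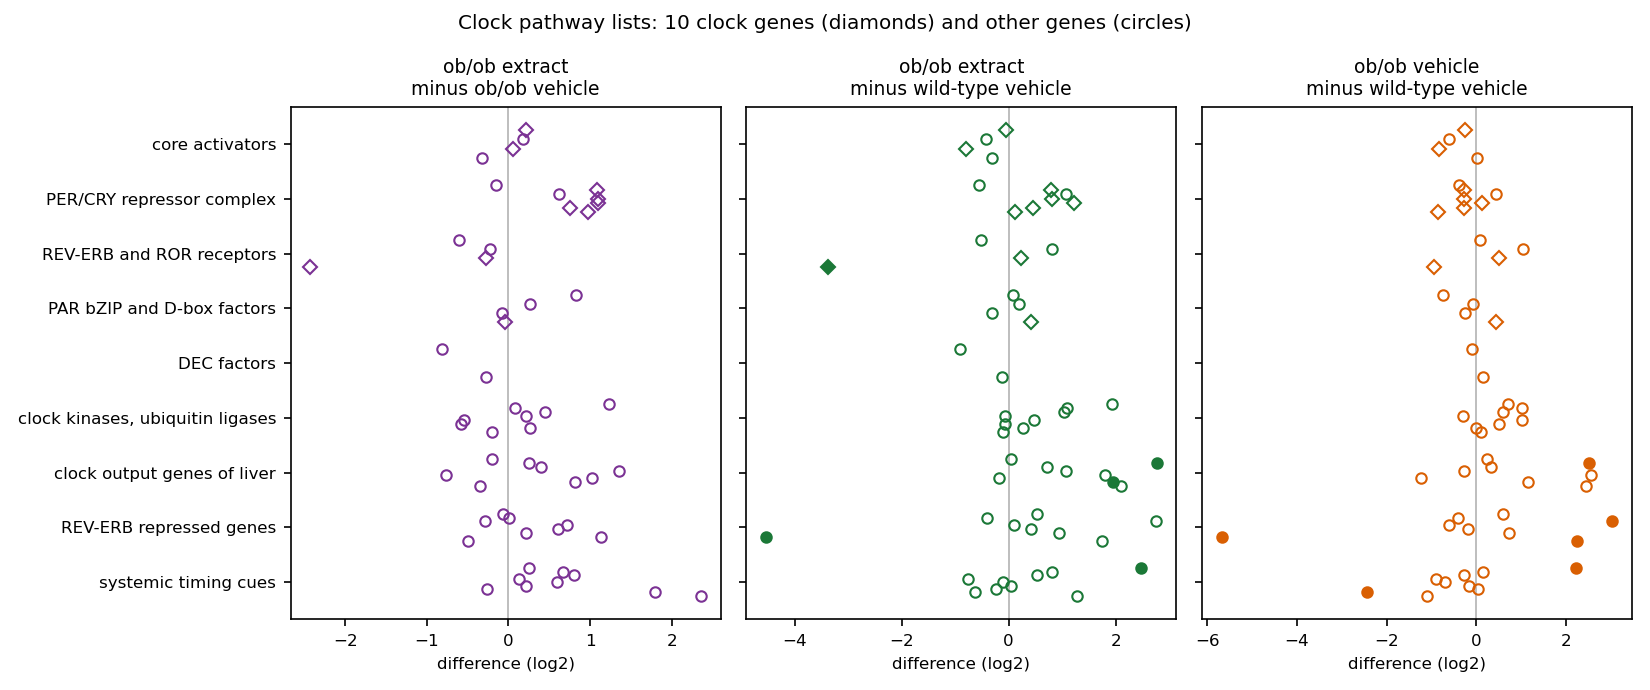
Difference in log2 signal (horizontal axes) of each measured gene in 9 clock-related lists (rows) for ob/ob extract minus ob/ob vehicle, ob/ob extract minus wild type and ob/ob vehicle minus wild type. Diamonds are the 10 clock genes and circles other genes, filled where limma called the difference, with no calls in the first panel; *Nr1d1* is the diamond at -2.43 and -3.37.

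Genes whose signal ran most like that of *Nr1d1* were ranked by Pearson's r over the 9 arrays among 9200 clusters with 1 symbol and above the receptor limit on at least 3 arrays. Most alike were *Elf1* (0.923), *Styk1* (0.906), *Adamtsl4* (0.885), *Slc26a6* (0.880) and *Sertad3* (0.880). The ETS factor *Elf1* gave 9.23, 9.32 and 9.07 log2 in ob/ob extract, 9.76, 9.88 and 9.36 in ob/ob vehicle, and 9.98, 9.87 and 10.20 in wild type. Most opposite were *Pyroxd1* (-0.962), *Foxo1* (-0.949), *Clcn3* (-0.942), *Fmo5* (-0.936) and *Vcpkmt* (-0.936). *Foxo1*, the insulin-restrained activator of gluconeogenesis, gave 8.37, 9.02 and 9.07 in ob/ob extract, 7.72, 7.95 and 7.52 in ob/ob vehicle, and 7.63, 7.49 and 6.76 in wild type. These values describe 9 arrays that share 3 groups, and much of each r is the order of the group means. Over deviations from group means r with *Nr1d1* was 0.926 for *Slc26a6*, 0.596 for *Elf1* and -0.678 for *Foxo1*. For *Arntl*, under the limit throughout, the most alike were *Zfp692* (0.936), *Lrrn2* (0.921), *2610528A11Rik* (0.920), *Smn1* (0.911) and *Ptpru* (0.910), and the most opposite *Rcor3* (-0.972), *Tsc22d1* (-0.971), *Ap3s2* (-0.966), *Akr1c13* (-0.966) and *Pbdc1* (-0.960).

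Markers of other liver cells were read beside the clock genes, and 0 of them were called in any comparison. Of 7 Kupffer cell and macrophage markers 6 had negative differences for extract minus ob/ob vehicle, and their summed signal was 8.37 to 9.73 log2 in ob/ob extract, 10.15 to 11.02 in ob/ob vehicle, against 9.22 to 10.18 in wild type. The largest single part of that sum on every array was *Cd5l*, at 8.19, 8.10 and 6.40 in ob/ob extract, 9.63, 9.0 and 10.44 in ob/ob vehicle, and 8.88, 8.81 and 7.01 in wild type. Of the 7 markers 0 were above the receptor limit on all arrays. Of 6 sinusoidal endothelial markers 4 had negative differences, with sums of 10.57 to 10.91 in ob/ob extract, 11.15 to 11.46 in ob/ob vehicle, against 10.77 to 11.59 in wild type. Of 5 stellate cell markers 3 had negative differences, and their sums, carried by *Dcn*, were 13.78 to 14.35 in ob/ob extract, 13.04 to 13.94 in ob/ob vehicle, against 13.1 to 13.5 in wild type. Among the 5 measured lymphocyte markers 4 were under the receptor limit on all arrays, and of 4 measured cholangiocyte markers 2 were. In whole liver fewer cells of a type and less RNA per cell cannot be told apart, and the part of these cells in the clock gene values was not tested.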

How the data were processed

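Values in the deposited table are log2 signals that the authors computed by SST-RMA in Transcriptome Analysis Console 4.0.2, per the series' design text, from Clariom S mouse arrays prepared from about 100 ng of liver RNA. SST-RMA stretches the scale, so fold sizes hold on it only. The table held 22206 clusters, of which 19572 carry 1 symbol in GEO's platform annotation, and the highest value was 19.93. RefSeq (GRCm38.p6) supplied names and promoters; the array's build is not given in the sources used here.

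Group means were fitted over all 9 arrays with limma 3.58.1 in R 4.3.3 (6 residual and 4.45 prior degrees of freedom, two-sided), adjusting p by Benjamini-Hochberg over all clusters and calling at 0.05. Nothing in the labels says that arrays are separate litters or cages, so p-values measure the spread between these arrays; for arrays their number limits the precision. The fit was tested on simulated data with known changes. Across the comparisons it called 7.46% to 11.9% of changes of 1 log2, 64.2% to 73.1% of changes of 2 and 93.9% to 97% of changes of 4. An uncalled difference near 1 log2 is therefore not shown to be absent. Same-numbered ob/ob vehicle and wild-type arrays deviated together (r of 0.256, 0.262 and 0.45 across clusters), and the replicate number was also fitted as a block. The labels give the numbers no meaning. The third array of each of these groups stood apart, and its part in these correlations was not tested.

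The members, lists and tests were chosen with earlier results of these data known. Genes are named by a rule: all 10 members, genes of the role lists, and the 5 clusters most like and most opposite to *Nr1d1* and *Arntl*. The cluster with the highest mean stands for a gene with several. Alternatives were quantile normalization, median centring, a filter on dim clusters, 2-group fits, a replicate block, array weights, the interquartile range as a covariate and leaving out arrays.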

Additional observations from a re-analysis of the deposited data

How the results depend on the processing

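*Nr1d1* passed the test for extract minus wild type in each of the 17 alternative fits. These fits reuse the extract arrays on which the gene was picked and are not independent of that choice. For extract minus ob/ob vehicle its difference stayed between -2.62 and -2.16 in the fits that left out 1 array. Signals under the receptor limit, which include *Arntl* throughout and 6 clock genes on ob/ob vehicle 3 and 7 on wild-type vehicle 3, limit what the arrays can show.

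Over all clusters, ob/ob vehicle against wild type gave 658 calls, 207 with only the 2 groups compared, 2137 with array weights, 1745 without both arrays that stood apart, 3771 under the design text criterion, and with 1 array left out between 147, lacking wild-type vehicle 2, and 1679, lacking ob/ob vehicle 3. Quantile normalization gave 290 higher and 256 lower calls where the deposited scale gave 507 and 151. Extract against ob/ob vehicle gave 0 calls, 106 under array weighting, 1 given the interquartile range covariate, 360 without both arrays, 1433 under the design text criterion, and 0 to 51 (without ob/ob vehicle 3) with 1 array left out. Extract against wild type gave 287, 796 with array weights, 595 without both arrays, 3115 under the criterion, and between 77 (without ob/ob extract 2) and 598 (without ob/ob vehicle 3) with 1 array left out. The cause of these changes was not tested.

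Among the clock genes, calls for ob/ob vehicle against wild type were 0, 1 with the interquartile range covariate (*Per1*) and 2 under the criterion, and for extract against wild type 1, and 4 under the criterion. Groups of ob/ob vehicle and wild type that did not overlap numbered 1, 2 with quantile normalization, 4 without both arrays (1 higher and 3 lower, against 23.8% and 28.5% of all clusters), and 1 to 3 (without wild-type vehicle 3) with 1 array left out.

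Several uncalled or untested differences changed sign. For extract minus ob/ob vehicle *Dbp* was 0.04 with quantile normalization and 0.19 with the interquartile range covariate, and *Npas2* was -0.06 with array weights and -0.04 without both arrays. With 1 array left out these differences ranged from -0.45 to 0.27 for *Dbp*, -0.04 to 0.42 for *Npas2* and -0.11 to 0.16 for *Arntl*. For ob/ob vehicle minus wild type these were *Per3* at -0.10 with quantile normalization, *Npas2* at 0.13 with array weights, *Per3* at -1 and *Dbp* at -0.89 with the covariate, and *Npas2* at 0.26, *Per2* at 0.06 and *Dbp* at -0.12 without both arrays. With 1 array left out they ranged from -0.47 to 0.01 for *Npas2*, -0.67 to 0.44 for *Per2*, -0.33 to 0.70 for *Per3*, -0.53 to 1.10 for *Dbp* and -1.45 to 0.43 for *Ciart*. For extract minus wild type they were *Nr1d2* at -0.09 with quantile normalization, *Npas2* at 0.09 with array medians subtracted, *Npas2* at 0.07, *Per1* at -0.10 and *Dbp* at -0.04 with array weights, *Per1* at -0.77, *Per2* at -0.41, *Dbp* at -0.70 and *Ciart* at -0.72 with the covariate, and *Npas2* at 0.22, *Per1* at -0.11, *Dbp* at -0.57 and *Ciart* at -0.38 without both arrays. With 1 array left out these ranged from -0.20 to 0.22 for *Npas2*, -0.11 to 0.53 for *Per1*, -0.57 to 1.06 for *Dbp* and -0.38 to 1.5 for *Ciart*.

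With the replicate number as a block, ob/ob vehicle against wild type gave 579 calls, extract against ob/ob vehicle 0 and extract against wild type 283, with *Nr1d1* passing at a limma adjusted p of 0.0074. The block changed no call among the clock genes. Same-numbered arrays of the extract group correlated with ob/ob vehicle at -0.13, 0.0157 and -0.106 and with wild type at -0.208, -0.0412 and -0.143, so they did not deviate together there.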
